A study of Mus musculus with 2 samples.

Results

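The short-chain dehydrogenase and reductase genes of mouse skin were examined on arrays of newborn mice with and without 1 family member, Sdr9c7. Members were the genes whose name in the array annotation begins with Sdr, Rdh, Dhrs, Hsd17b, Hsd11b or Hsd3b followed by a digit, which gave 48 of 31035 gene names and 54 of 39417 probes. One group was wild type and the other was Sdr9c7-/- (knockout), both on a C57BL/6J background at postnatal day 0, and each was represented by 1 array. Each array carried RNA pooled from 5 animals, so differences between animals could not be seen. The labels call the tissue skin, taken from the back, while the series' design text calls it epidermis. Muscle, adipocyte and fibroblast markers were all well above background (values below), so the samples are described as skin. The sources used here do not give which part of Sdr9c7 was deleted. With 1 array per genotype no value below has a replicate check and no test was run. Genotype and array, with its labelling and hybridisation, cannot be told apart, and the number of arrays limits the precision.

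Short-chain dehydrogenases are enzymes with a nucleotide-binding fold that pass hydride between NAD or NADP and an alcohol, ketone or aldehyde. Some family members interconvert retinol and retinal, others switch steroid hormones between active and inactive forms, and others act in fatty acid, sterol or bile acid metabolism. Sdr9c7 works in the upper epidermis after the lipoxygenases Alox12b and Aloxe3, where it oxidises the epoxy-alcohol of linoleate carried by acylceramides, a step in building the lipid envelope of the cornified cells. Skin also makes retinoic acid and converts steroids locally through relatives of this enzyme. The arrays addressed which relatives are expressed in newborn skin and whether any of them was higher where Sdr9c7 was lost.

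Each gene was read by 60-base probes, and the sequences below show parts of them, with the longest exact runs that some share. Coordinates are those of the array files, which name no build, and they did not match assembly GRCm38.p6, so the probes were not placed in exons or UTRs here. A window of 30 bases is given of each probe, 5′ to 3′. The first set shows the Sdr9c7 probe (chr10:127348150-127348209, plus strand), with capitals for the longest run it shares with any other member's probe (that of Hsd3b1), and the probes of its neighbours Rdh1 (chr10:127205107-127205166, plus strand) and Rdh9 (chr10:127228953-127229012, plus strand), with capitals for the longest run each shares with the Sdr9c7 probe.
Sdr9c7: ccccaggaaacAAACAAAAgaactcatagg
Rdh1: ctgggttaataCCCActtttcactgagtgc
Rdh9: ctgTAGAAtcactaagtgaccatccctccc
The longest shared run of the Sdr9c7 probe with any of the 53 other member probes was 8 bases, and the median over those probes was 6. The member probes of its close relatives in the gene cluster therefore share only short exact runs with it. The probes of Rdh16f2, a cluster gene outside the members, were not compared. Whether the Sdr9c7 probe matches the transcripts of its relatives was not tested.

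By the longest shared run, the closest member probes belonged to Hsd3b5 (chr3:98422576-98422635, minus strand) and Hsd3b4 (chr3:98249624-98249683, minus strand). Both are 3beta-hydroxysteroid dehydrogenases, and the shared run of 23 bases is in capitals.
Hsd3b5: tttgATACCTTTATGAAGCTCAAAGAAcaa
Hsd3b4: tcccATACCTTTATGAAGCTCAAAGAAaag
Of 1425 pairs of member probes from different genes, 4 shared a run of 15 bases or more. Whether such probes also bind each other's transcripts was not tested, and neither Hsd3b5 nor Hsd3b4 was well above background.

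The other probes shown are those of genes that were at least 2-fold apart between the arrays. They are Dhrs7c (chr11:67629444-67629503, plus strand), with the hexamer AATAAA, the letters of the usual polyadenylation signal, in capitals, and the 2 probes of Hsd17b13 (chr5:104392792-104392851 and chr5:104384701-104384760, both minus strand). The files assign the Hsd17b13 probes to different RefSeq transcripts. Whether the hexamer in the Dhrs7c probe serves as a signal was not tested.
Dhrs7c: tcactcaaggggAATAAAggctttcctaga
Hsd17b13, first probe: attgtgggccacaaaaccaagatgaagtag
Hsd17b13, second probe: atggtttgtatatgctcagtccagggagtg
The Hsd17b13 probes carry no hexamer, and they gave opposite differences, as described below.

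Most of the family was detectable in newborn skin. Well above background, a flag that the scanner software sets from the spread of the background, were 37 of 48 members on the wild type array (77.1%) and 38 on the knockout array (79.2%), against 74.4% and 76.3% of all gene names. Rdh16 was well above background on the knockout array only, and 10 members on neither: Rdh7, Hsd17b6, Dhrs9, Rdh8, Hsd17b1, Hsd17b3, Hsd3b1, Hsd3b3, Hsd3b4 and Hsd3b5. These include Hsd17b1, which makes estradiol in the ovary, Hsd17b3, which makes testosterone in the testis, Rdh8 of the photoreceptor outer segment, and Hsd3b1 of gonad and adrenal. A probe that is not well above background has only an upper bound, so these transcripts were not detectable here rather than absent. Their relative signals, as defined next, ran from 0.00117 for Hsd3b1 to 0.00631 for Rdh8 in wild type skin and from 0.000927 for Hsd3b1 to 0.00532 for Dhrs9 in knockout skin.

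Signals are given relative to the 75th percentile of all probes on the same array, which equals 1, and they are not levels that can be ranked between genes, because probes differ in how strongly they bind. By this measure 14 members lay above the percentile on the wild type array and 12 on the knockout array. The 8 largest wild type signals were those of Sdr42e1 (15.5 ± 1.55, the software's own error for the spot), Dhrs3 (10.9), Dhrs7 (10.4), Hsd17b10 (8.41), Hsd17b4 (7.35), Hsd17b12 (2.15), Dhrs7c (2.10) and Hsd3b7 (2.05). In the knockout these stood at 14.4, 10.2, 9.49, 8.21, 7.54, 2.19, 0.893 and 1.91. Dhrs7c was the exception among the 8, and the log2 differences of the other 7 lay between −0.13 and 0.04.

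**Figure D1:**
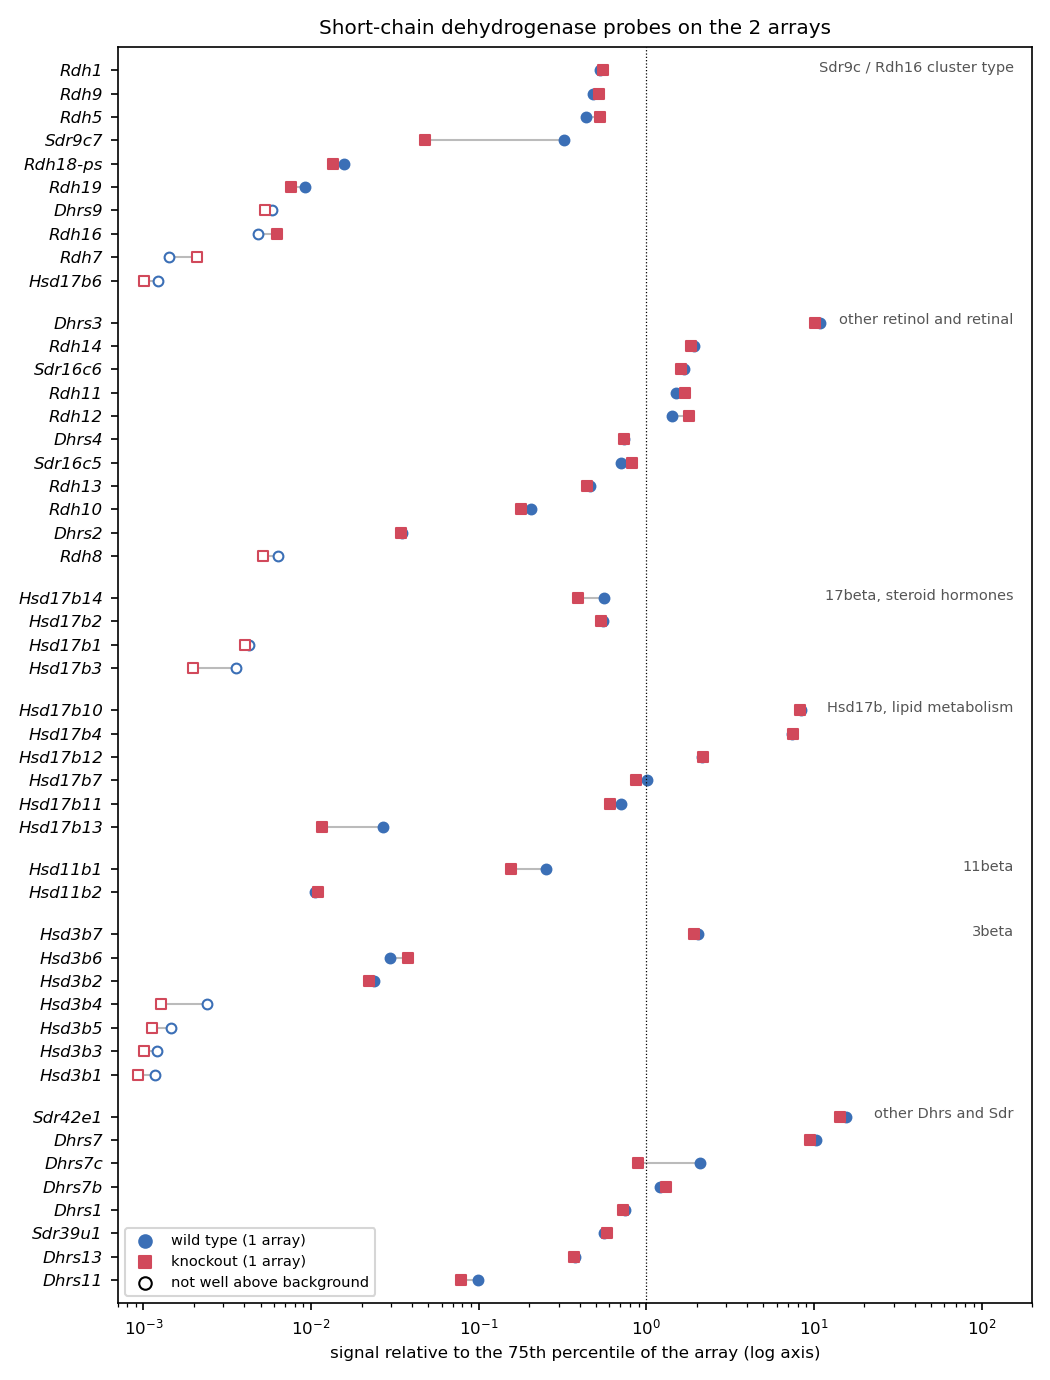
Relative signal (log axis; 1 is the array's 75th percentile) of each of the 48 members in the wild type (circles) and knockout (squares), 1 array each, grouped by role, with open symbols where the probe was not well above background. Among members measured on both arrays, the wild type and knockout symbols lie close together for most, and furthest apart for Sdr9c7, Dhrs7c, Hsd17b13 and Hsd11b1. Some open symbols also stand apart, such as those of Hsd3b4 and Hsd17b3, and the 3beta group is mostly open.

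No member was at least 2-fold higher in the knockout, 0 of 38, where 1.06% of all genes tested were. At least 2-fold lower were 3 of 38, where 2.0% of all genes were: Sdr9c7, Dhrs7c and Hsd17b13. At 1.5-fold the counts were 0 higher, against 3.36% of all genes, and 4 lower, against 7.15%, with Hsd11b1 as the fourth. Among the 37 members measured on both arrays, 33 were within 1.5-fold (89.2%, against 91.6% of all measured genes), 13 lay above 0 and 24 below, beside 9789 above and 12930 below among all 22719 measured genes. Their median log2 difference, knockout minus wild type, was −0.05, and −0.05 without Sdr9c7, beside −0.04 over all measured genes. The counts of lower members include the deleted gene itself.

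To read single differences, the spread between spots and probes gives a scale, though it holds no difference between animals. Repeated spots of 1 probe differed in their log2 difference by an SD whose median over 320 probes was 0.06, and different probes of the same gene by a pooled SD of 0.25 over 5176 genes. With all measured genes split into 4 equal bins by mean signal, the 5th and 95th percentiles of the log2 difference were −0.80 and 0.58 in the dimmest bin and −0.40 and 0.28 in the brightest. Set against the percentiles of their own signal bin, 32 of the 37 measured members lay inside, 5 lay below and 0 above. Those below were Sdr9c7, Dhrs7c, Hsd17b13, Hsd11b1 and Hsd17b14.

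**Figure D2:**
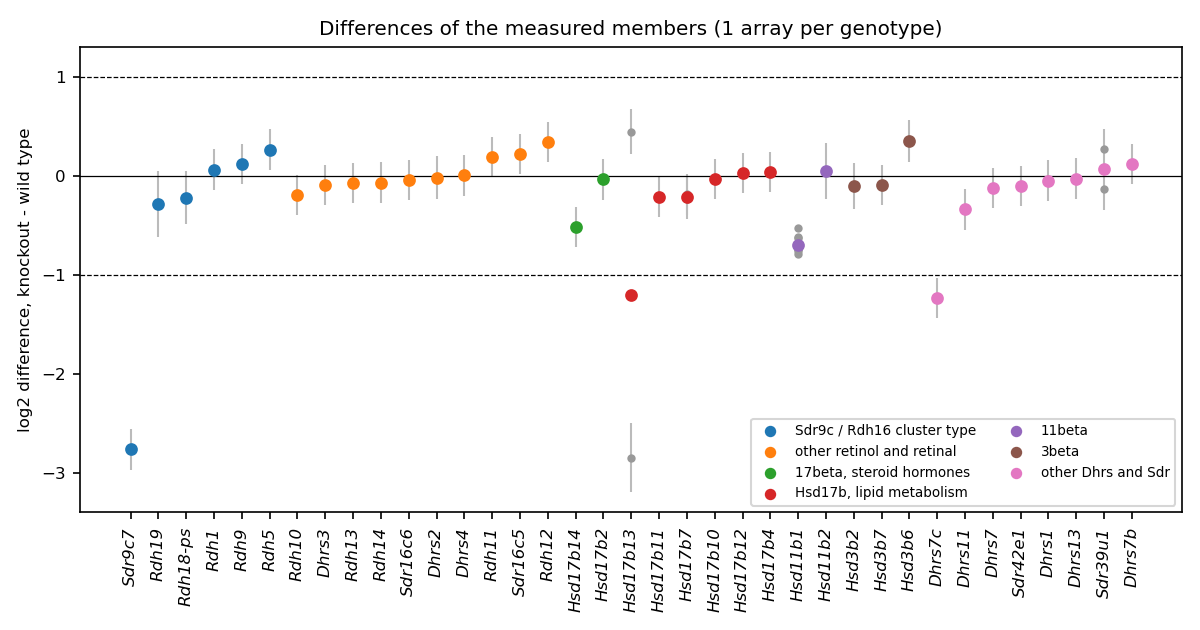
Log2 difference (knockout minus wild type) of the 37 measured members, coloured by role; small grey points are single spots or probes, grey bars the scanner software's error of a spot (not drawn for Hsd11b1, with 9 spots), and dashed lines mark 2-fold. No member reaches the upper dashed line, and Sdr9c7, Dhrs7c and the mean of Hsd17b13 lie below the lower line.

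Sdr9c7 had a relative signal of 0.324 ± 0.0325 in wild type skin and 0.0479 ± 0.00493 in knockout skin, again with the software's error. The difference was −2.76 ± 0.21 on the log2 scale, 6.78-fold lower, the sixth-lowest of all measured genes, and lower on the array labelled knockout. The remaining knockout signal was still well above background. Its only probe lay in a band of rows that varied more from array to array than the rest of the slide. Among measured spots below the median signal, 4.88% were at least 2-fold apart in that band and 2.01% outside the marked areas. The bands were picked by this same share. After another background correction, normexp, the Sdr9c7 difference was −2.05.

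The genes of this family that lie beside Sdr9c7 encode retinol and 3alpha-hydroxysteroid dehydrogenases, the closest named relatives of the enzyme. In the order of the RefSeq table they run Rdh1, Rdh9, Rdh16, Rdh18-ps, Rdh19, Rdh16f2, Rdh7, Sdr9c7 and Hsd17b6. Only names beginning with Rdh, Sdr or Hsd17b were kept in this order, and genes with other names were not listed. Rdh16f1, grouped with them by role, had no probe of that name. Rdh1, a retinol dehydrogenase, had a relative signal of 0.528 in wild type and 0.552 in knockout skin, a log2 difference of 0.06. Rdh9, an enzyme of retinol and 3alpha-hydroxysteroids, went from 0.483 to 0.525, a difference of 0.12. Both were clearly expressed and differed between the arrays by less than the pooled SD between probes.

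The other genes of the cluster that had a probe were dim. The pseudogene Rdh18-ps read 0.0158 and 0.0136 (−0.22), and Rdh19 0.00925 and 0.00759 (−0.29, with a software error of 0.33). Rdh16 read 0.00484 in the wild type, not well above background, and 0.00626 in the knockout. Its one-sided bound was 1.11-fold higher. The log2 difference of the spot was 0.37 with a software error of 0.47. That spot lay in the same band of rows as the Sdr9c7 spot, so the direction for Rdh16 is not settled. Rdh7 (0.00141 and 0.00209) and Hsd17b6 (0.00121 and 0.00101), an enzyme that returns androgen metabolites to their active form, were not well above background on either array. Rdh18-ps and Rdh19, the measured genes among these, lay inside the percentiles of the dimmest bin.

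Rdh16f2 fell outside the members, since the array annotation gives it a clone name, and is placed here through its RefSeq entry. It read 0.0169 and 0.0249, a log2 difference of 0.56. Of its 2 probes, 1 with 10 spots gave 0.43 and the other, with 1 spot, gave 0.69. Both probes were well above background on both arrays, and their spots are repeats of 1 RNA pool per genotype. The gene's 0.56 was the highest value of the cluster and lay just inside the dimmest bin's 95th percentile of 0.58. In the same role group but outside the cluster, Rdh5, the 11-cis-retinol dehydrogenase of the retinal pigment epithelium, had 0.438 and 0.526 (0.26 ± 0.20), the highest of the 6 measured members, and Dhrs9 was not well above background. The median of the 6 was −0.08, with 3 above 0 and 3 below. Sdr9c7 itself is among the 6 and among those below. Of its relatives, Rdh1, Rdh9 and Rdh5 lay above 0 and Rdh18-ps and Rdh19 below, from −0.29 for Rdh19 to 0.26 for Rdh5.

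The other enzymes of retinol and retinal stayed within 1.5-fold throughout, 10 of 10 measured, with a median of −0.03, 4 above 0 and 6 below. Rdh12, a retinal reductase best known from photoreceptors, was the highest, at 1.42 in wild type and 1.79 in knockout skin (0.34 ± 0.20). Over 11 settings of the processing, several of which cannot change a gene with 1 probe, its difference stayed between 0.34 and 0.38. Rdh11, a related retinal reductase, read 1.499 and 1.71 (0.19), and Rdh14 1.93 and 1.84 (−0.07), so the 3 related reductases did not all lie on one side.

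Dhrs3, which reduces retinal back to retinol and is induced by retinoic acid, read 10.9 and 10.2 (−0.09). Rdh10, the main enzyme that oxidises retinol to retinal in the embryo, was the lowest of this group at 0.205 and 0.180 (−0.19). Sdr16c5 and Sdr16c6, epidermal retinol dehydrogenases, read 0.708 and 0.824 (0.22) and 1.67 and 1.62 (−0.04). None of these differed by more than the pooled SD between probes. Rdh13, a mitochondrial enzyme, Dhrs4, a peroxisomal carbonyl reductase, and Dhrs2 had log2 differences of −0.08, 0.0046 and −0.02.

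Among the 17beta-hydroxysteroid dehydrogenases of steroid hormones, 2 of 4 were measured. Hsd17b2, which inactivates estradiol and testosterone, was level at 0.553 and 0.539 (−0.04). Hsd17b14 read 0.562 and 0.392, a log2 difference of −0.52 ± 0.20, 1.43-fold lower. Over 11 settings, several of which cannot change a gene with 1 probe, Hsd17b14 stayed between −0.52 and −0.47. It lay a little below the 5th percentile of its signal bin, −0.49.

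Of the Hsd17b enzymes of lipid and fatty acid metabolism, the 6 found by name were measured (Hsd17b8 was not analysed here), and 5 were within 1.5-fold, with a group median of −0.12. Hsd17b4, the multifunctional enzyme of peroxisomal beta-oxidation, was the highest of them at 7.35 and 7.54 (0.04). Hsd17b12, which reduces 3-ketoacyl-CoA in the elongation of the very long fatty acids that acylceramides need, read 2.15 and 2.19 (0.02). Hsd17b10, a mitochondrial enzyme of isoleucine breakdown and a subunit of mitochondrial RNase P, stood at −0.03. These 3 had some of the largest signals of the family and hardly differed between the arrays.

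Hsd17b7, the 3-ketosteroid reductase of cholesterol synthesis, gave −0.19 and −0.23 with its 2 probes. Hsd17b11, an enzyme of lipid droplets, read 0.706 and 0.610 (−0.21).

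Hsd17b13, a lipid droplet enzyme best known from liver, was called lower only through the mean of probes that disagreed. The first probe read 0.0373 and 0.00519 (−2.85 ± 0.35) and the second 0.0191 and 0.0260 (0.45 ± 0.23), and the mean was −1.201. Both probes sat in such a band of rows, and on the wild type array the first had uneven pixels, with a pixel SD of 0.369 of their mean. The second probe, the brighter over both arrays, gives 0.45 alone, so the direction of this gene rests on which probe is read. Liver markers were close to level: Alb was at 0.09, Apoa2 at −0.10, and Cyp2c29 was not well above background.

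Hsd11b1, which regenerates active glucocorticoid from its inactive 11-keto form, was printed 10 times on the array and 9 spots were usable. In the wild type those spots read from 0.229 to 0.271 (mean 0.253 ± 0.0142, SD over 9 spots of 1 array) and in the knockout from 0.153 to 0.162 (0.156 ± 0.00282). Every wild type spot lay above every knockout spot. The log2 difference was −0.70 ± 0.08 (SD over the 9 spots, which are repeats of 1 RNA pool and not animals), from −0.79 to −0.53, or 1.62-fold lower. None of the 9 spots lay in a marked area of the slide.

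Hsd11b1 is also expressed in fat, and adipocyte markers moved with it. All 6 were below 0, 2 of them at least 2-fold lower, from Fabp4, a fatty acid carrier (−0.34), to Cfd, adipsin (−1.76), with a median of −0.71, and their summed relative signal went from 76.3 to 49.3. The 4 fibroblast markers, another source of Hsd11b1 in skin, had a median of −0.04, from Col1a1 (−0.20) to Pdgfra (0.12), with sums of 223 and 215. The part of either cell type in the Hsd11b1 difference was not tested. Hsd11b2, which performs the opposite, inactivating step, was dim and level, at 0.0106 and 0.0110 (0.05).

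**Figure D3:**
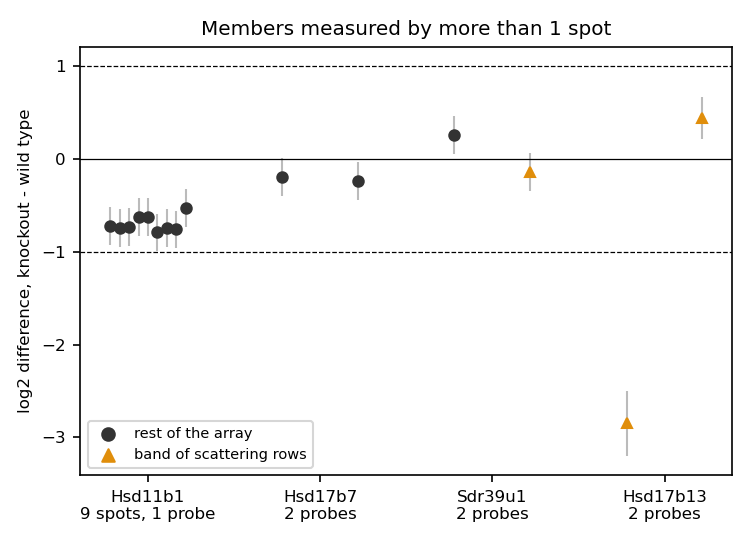
Log2 difference (knockout minus wild type) of each usable spot for the members read by more than 1 spot, with the scanner software's error as bars and triangles for spots in a band of scattering rows. The 9 Hsd11b1 spots lie together between −0.79 and −0.53, while the Hsd17b13 probes stand at −2.85 and 0.45.

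Of the 3beta-hydroxysteroid dehydrogenases, some of which convert pregnenolone and related steroids in hormone synthesis, 3 of the 7 found by name were measured. Hsd3b7, which acts on sterols in bile acid synthesis, read 2.05 and 1.91 (−0.10). Hsd3b6, known from the adrenal cortex, was dim at 0.0295 and 0.0376, and its difference of 0.35 ± 0.21 was the highest of all 37 measured members. Over 10 settings that value ranged from 0.16 to 0.43. Hsd3b2 read 0.0239 and 0.0222 with the probe that was well above background (−0.10, the lowest of the group).

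Of the other Dhrs and Sdr enzymes found by name 8 of 8 were measured and 7 were within 1.5-fold, with a median of −0.08. Dhrs7b, a peroxisomal enzyme of ether lipid synthesis, was the highest at 1.21 and 1.31 (0.12). Sdr42e1 (−0.10), Dhrs7 (−0.13), Dhrs1 (−0.05) and Dhrs13 (−0.03) were close to 0, and Dhrs11, a ketosteroid reductase, stood at −0.34 with 0.0996 and 0.0788. Sdr39u1 had 2 probes, at 0.27 and −0.14, the second of them in a band of scattering rows.

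Dhrs7c, an enzyme of the sarcoplasmic reticulum of striated muscle, read 2.10 ± 0.210 in wild type skin and 0.893 ± 0.0893 in knockout skin, a log2 difference of −1.23 ± 0.20, 2.35-fold lower. Its single probe lay outside the marked areas of the slide. Over the settings, several of which cannot change a gene with 1 probe, the value stayed between −1.25 and −1.19. Skeletal muscle markers moved with it. All 8 had negative differences, 4 of them at least 2-fold, with a median of −1.10, and their summed relative signal went from 195 to 108.

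Dhrs7c lay inside the range of these markers, from Tnni2, a troponin subunit (−0.74), to Pvalb, parvalbumin (−2.26). The other markers at least 2-fold lower were Actn3 (−1.52), Atp2a1 (−1.32) and Ckm (−1.23), which serve contraction, calcium uptake and energy supply in fast muscle. In pooled tissue fewer cells of a type and less RNA per cell cannot be told apart. The part of muscle in the Dhrs7c difference was not tested.

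Genes that work with the family were set beside it. Of 28 short-chain dehydrogenases that the naming rule does not reach, 28 were measured and 28 were within 1.5-fold, with a median of −0.04. The lowest of them was Dhrsx (−0.28), at 0.604 and 0.497. Of the route that surrounds Sdr9c7, with the 12R-lipoxygenase and acylceramide enzymes, 22 of 23 measured genes were within 1.5-fold and the median was −0.02. Alox12b, which oxygenates the linoleate, read 1.499 and 1.42 (−0.08) and Aloxe3, which turns the product into the epoxy-alcohol, 7.20 and 7.14 (−0.01). Ephx3, an epoxide hydrolase, was the highest at 0.31, and Degs2, a sphingolipid hydroxylase of the epidermis, the lowest at −0.85. Keratinocyte markers were level, with a median of 0.03 over 5, from Lor (−0.15) to Krt5 (0.14).

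Other genes of retinoid metabolism had a median of −0.21 over 18 measured, 14 of them within 1.5-fold. They ran from Stra6, the receptor for retinol-binding protein (−0.72), which was dim at 0.0111 and 0.00675, to Lrat, which esterifies retinol (0.69), at 0.0740 and 0.1196. Other enzymes of steroid hormones had a median of −0.17 over 16, 14 within 1.5-fold, from Akr1c18, which inactivates progesterone (−0.93, 0.698 and 0.365), to Srd5a1, a steroid 5alpha-reductase (0.30, 3.56 and 4.39). No gene of these 4 lists was at least 2-fold apart among those measured on both arrays. Sebaceous gland markers, another skin site of retinoid and steroid enzymes, had a median of −0.12 over 5, from Mc5r (−0.50) to Elovl3 (0.29).

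**Figure D4:**
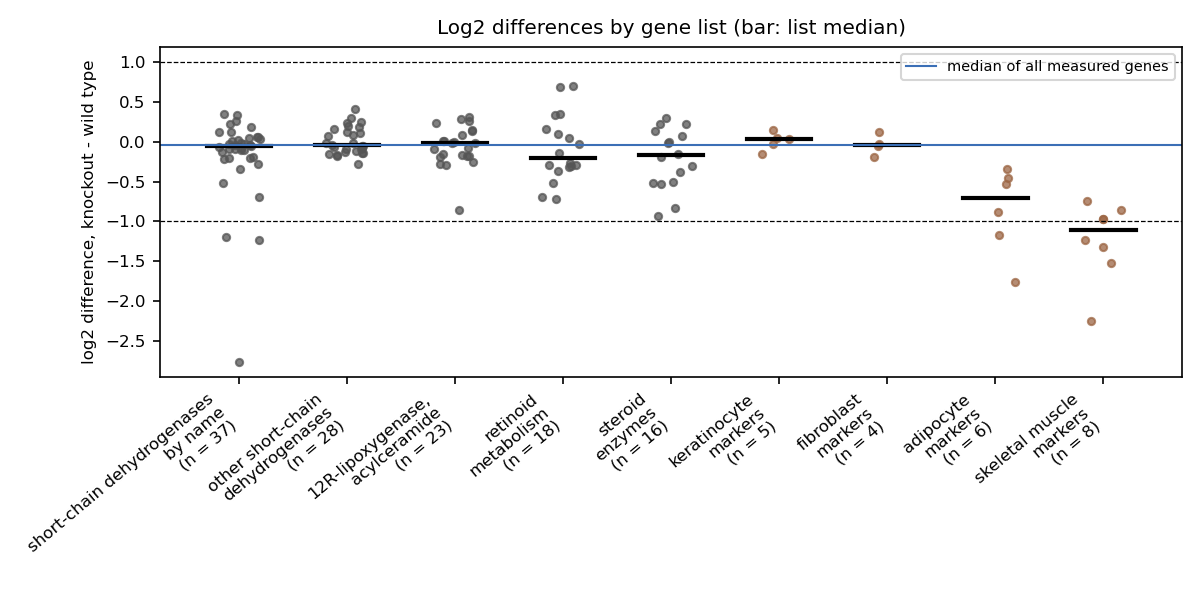
Log2 difference (knockout minus wild type) of each measured gene by list, with list medians as black bars, the median of all measured genes as a blue line and 2-fold as dashed lines; points are spread sideways for visibility. The members and the 4 enzyme lists centre between −0.21 and −0.02, and the adipocyte and muscle markers at −0.71 and −1.10.

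The 4 members at least 1.5-fold lower were followed across the processing settings. Dhrs7c and Hsd11b1 kept their values within narrow ranges, −1.25 to −1.19 and −0.70 to −0.61. Each has 1 probe, so several of the settings could not change these values. Sdr9c7 remained at −2.05 or lower wherever it had a value. Hsd17b13 spanned both signs, from −1.201 to 0.45.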

How the data were processed

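Per the labels' protocols, 200 ng of total RNA per pool was labelled with Cy3 and hybridised to a 1-colour Agilent array. Per the file headers, the authors' scanner files hold the intensity of each of 44397 spots after background subtraction and spatial correction, with flags and errors from the software. The submitters' processing notes name Agilent Feature Extraction 11.5.1.1. The deposited value table holds a linear ratio: each array's processed intensities over a constant of that array (1906 wild type, 2080 knockout), with no centring of genes. Its medians were 0.0855 and 0.0840, and it was made by a step not given in the sources used here.

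Control spots and 192 outlier spots were left out, spots of a probe were averaged as log2 values, and each array's 75th percentile over all probes was subtracted (1747 for the wild type, 1923 for the knockout). On these arrays 74.9% and 76.8% of probes were well above background. A gene's value is the mean over its probes that on both arrays were unsaturated and well above background. A gene well above background on 1 array only has a one-sided bound against the higher of the dim signal and the lowest signal well above background on that array (0.00563 and 0.00427). Of the 48 member names, 48 are current symbols in the RefSeq table of GRCm38.p6, which served for names and gene order only. No member had a saturated spot, 14 had a spot in a band of scattering rows, and 0 lay in a small block of displaced values.

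Normexp (offset 50), other scalings, the deposited table, filters on dim probes, the brightest probe and slide areas were tried as alternatives. Python 3.11.15 with pandas 2.3.3, and R 4.3.3 with limma 3.58.1 were used. The arithmetic was tested by recovering known fold changes put into a copy of the wild type array with small added noise. Both sides of that test had the same flags, so one-sided bounds and the scatter between real arrays were not tested. Named in full were Sdr9c7, members at least 1.5-fold apart, the 8 largest wild type signals, the ends of each role group and list, the genes beside Sdr9c7 and members whose probes disagreed by over 1 log2 unit. The other members were added to account for the family, and Actn3, Atp2a1, Ckm, Alox12b and Aloxe3 as background to a result. A gene that this rule names is not reported here. Members and lists were chosen with earlier results of these data known.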

Additional observations from a re-analysis of the deposited data

How the results depend on the processing

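No paired analysis was possible because each genotype had 1 array, and leaving out a replicate was not possible for the same reason. The Sdr9c7 difference moved to −2.05 with normexp and stayed between −2.76 and −2.71 under the other 8 alternatives that gave it a value. These are not 8 separate checks. Keeping dim probes or taking the brightest probe cannot change a gene with 1 measured probe. Leaving out non-uniform spots gave the main value again. Scalings by a constant and the deposited table shift every gene alike. Sdr9c7 has no value among the brighter 50% of probes or with the displaced and scattering areas left out, where its only probe is not used. The count of members at least 2-fold lower went from 3 to 1 under each of these settings, with 26 and 27 members left to count, and that member was Dhrs7c. It was 2 with normexp and with the brightest probe per gene. For Hsd17b13 the difference was −0.41 with normexp and reversed to 0.45 with the brightest probe. The normexp offset of 50 in itself shrinks log2 differences of dim spots, such as those of Hsd17b13 and of Sdr9c7 in the knockout. The count at least 2-fold higher was 0 under 13 alternatives, and the highest single value was 0.56 for Rdh7 with no filter on dim probes, a probe not well above background on either array. The median over members ranged from −0.08 to −0.0039. Scalings moved the median of all genes by at most 0.05. Precision is limited by 2 arrays, and dim members near 0.01 or below by background.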

Other observations

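The hexamer AATAAA, the usual polyadenylation signal, was present in 11 of 54 member probes (20.4%) and in 12.6% of 39429 probe sequences on the array, counted on the probe strand only. A match says only that the letters lie in the probe.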
